A study of Mus musculus with 24 samples.

Results

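Necab3, Prf1 and Gm10125 are 3 mouse genes whose transcripts were lower in condensing than in round spermatids, and lower again in condensing spermatids in which CBP and p300 had been knocked down. They were chosen by those measured values: every probe annotated to the 3 genes was taken, because the transcripts were higher in round than in condensing spermatids and lower in the condensing knockdown group (CS_mut) than in the condensing wild type (CS_wt). They are 3 of 19057 genes named on the bead array, which carried 4 of their probes among 45281, with 1 for Necab3, 2 for Prf1 and 1 for Gm10125. Of these, 3 were among the 19086 probes that passed the filter on dim signal (a detection p under 0.05 on at least 6 arrays). The differences that chose the genes are given as descriptions with their errors and without a test. The comparison the choice did not use, knockdown against wild type in round spermatids, was tested. Round arrays did take part in the choice through the stage difference, so this test is not wholly separate from it.

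The arrays measured RNA from 4 groups of 6 samples of adult mice aged 7 weeks: CS_mut, condensing spermatids with a double knockdown of Cbp and p300 after meiosis, CS_wt, wild-type condensing spermatids, RS_mut, round spermatids with the same knockdown, and RS_wt, wild-type round spermatids. The labels name no promoter, vector or Cre line behind the knockdown, and they do not say whether the 6 samples of a group came from separate animals, so the spread behind the errors and tests may be technical. The transcripts of the targeted genes were not called lower: 2 Crebbp probes, for CBP, had -0.11 and -0.45 for CS_mut minus CS_wt (limma adjusted p = 0.942 and 0.471) and 0.01 and 0 for RS_mut minus RS_wt, and 2 Ep300 probes, for p300, had 0.19 and -0.02 in condensing and 0.19 and 0.05 in round spermatids, so the group labels are taken as given. Each array detected between 15687 and 18411 probes (34.6% to 40.7%), and the median intensity of an array lay between 114.8 and 141.9 units, with the lowest values on CS_mut replicates 19 and 23. Of 14 tested round spermatid and acrosome genes, 11 fell in CS_wt relative to RS_wt and 1 rose, against 33.6% and 30.2% of all genes. Among the 14, Acr, the acrosomal protease acrosin, fell by 1.17 ± 0.10 (SE) on the log2 scale and Zpbp, a zona pellucida binding protein, fell by 1.32 ± 0.12. Markers of other cells were higher in the condensing arrays: the summed linear level of 6 Sertoli cell markers ranged from 10700 to 11700 in CS_mut, 8970 to 11200 in CS_wt, 833 to 1850 in RS_mut and 895 to 1260 in RS_wt, and that of 5 erythroid markers from 59100 to 69400 in CS_mut, 50300 to 60900 in CS_wt, 525 to 2050 in RS_mut and 409 to 1390 in RS_wt. All 6 Sertoli and all 5 erythroid markers tested rose in CS_wt relative to RS_wt, though the erythroid marker Slc4a1 was detected on only 8 arrays. Of 9 meiotic spermatocyte markers 2 rose and 4 fell, near the shares over all genes, so nothing is read from that split. None of the genes in these lists was called in CS_mut against CS_wt. At 1 probe per gene limma called 0.251% of all genes lower there and 0.223% higher, the background for each later list too. For CS_mut minus CS_wt the median was 0.19 for the Sertoli, 0.22 for the erythroid and -0.03 for the meiotic spermatocyte markers, beside 0.009 over all genes. The part of other cells in the differences between stages, or between CS_mut and CS_wt, was not tested.

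CBP and p300 are related histone acetyltransferases and coactivators that are recruited to promoters and enhancers by DNA-bound transcription factors. Round spermatids are haploid cells that still transcribe actively, and transcription shuts down while the nucleus condenses, so a transcript made early can be lost, kept or stored in later stages. Prf1 encodes perforin, the pore-forming protein that cytotoxic lymphocytes keep in their granules and release onto target cells. Necab3 encodes a calcium-binding protein with an EF hand and an antibiotic biosynthesis monooxygenase domain, which binds adaptors of the amyloid precursor protein (App), the Apba proteins. Gm10125 is annotated by RefSeq as a long non-coding RNA gene whose synonym, Zeb1os, places it on the opposite strand of Zeb1, and no function is known for it.

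Coactivators act at promoters, so the stretch around the start of each gene is shown as RefSeq gives it (GRCm38.p6, 250 bases before the annotated start to 50 after it, 5′ to 3′ on the gene's strand), with matches to 5 motifs in capitals. Windows were in the table for Necab3, at chr2:154558805-154559104 on the minus strand, and for Prf1, at chr10:61297586-61297885 on the plus strand. For Necab3 the table holds 2 windows whose coordinates differ by 1 base, and the first is shown.
Necab3: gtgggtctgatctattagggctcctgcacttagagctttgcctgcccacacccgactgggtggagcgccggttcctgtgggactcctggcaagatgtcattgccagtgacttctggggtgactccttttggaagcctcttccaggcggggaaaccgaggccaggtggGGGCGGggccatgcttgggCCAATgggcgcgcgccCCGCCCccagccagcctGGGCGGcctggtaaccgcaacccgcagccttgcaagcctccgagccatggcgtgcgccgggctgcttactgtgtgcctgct
Prf1: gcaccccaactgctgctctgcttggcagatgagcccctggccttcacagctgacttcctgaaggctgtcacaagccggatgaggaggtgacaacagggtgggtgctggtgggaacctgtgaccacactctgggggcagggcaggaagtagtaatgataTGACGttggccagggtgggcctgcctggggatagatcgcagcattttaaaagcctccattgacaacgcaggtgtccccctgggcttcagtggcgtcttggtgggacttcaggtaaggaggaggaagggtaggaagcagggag
Both strands were searched for each motif, and its share of all 32851 windows in the table is given beside it. The full cAMP response element bound by CREB and CREM, TGACGTCA, was in neither window and in 1.79% of all windows. Its first part alone, TGACG, which is counted within the full element too, was once in the Prf1 window, 92 bases before the start, and not in that of Necab3 (20.8% of all windows). The motif GGGCGG was in the Necab3 window 3 times, starting 83, 48 (on the other strand) and 31 bases before the start, and not in that of Prf1 (35.7% of all windows). The motif CCAAT was once in the Necab3 window, 64 bases before the start, and not in that of Prf1 (37.4% of all windows). The motif TATAAA was in neither (13.6% of all windows). The GC content was 66% for Necab3 and 58.7% for Prf1, beside a median of 52.7% over all windows. The matches describe these letters and are not evidence of binding.

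Perforin is the member with 2 probes, and they disagreed in brightness. Probe ILMN_2960700 was detected on all 24 arrays. Its non-normalized mean bead intensity had a lowest, median and highest value of 153, 168 and 196.4 units in CS_mut, against 189.4, 203.9 and 212.4 in CS_wt. In round spermatids it was 340.2, 384.4 and 507.7 in RS_mut, against 294.3, 335.7 and 405 in RS_wt. Every round array was thus above every condensing array, and the condensing groups overlapped on this scale, because 1 CS_mut array exceeded the lowest CS_wt array. Probe ILMN_1228333 was detected on 1 of 24 arrays, an RS_mut array, with medians of 125 in CS_mut, 125.4 in CS_wt, 122.9 in RS_mut and 126.2 in RS_wt. It was not well above background in any group, so it gives no difference, and all Prf1 values that follow come from ILMN_2960700.

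Necab3 lay close to background in the condensing knockdown. Its probe ILMN_2775695 had a lowest, median and highest non-normalized intensity of 116.9, 145.3 and 161.6 units in CS_mut, where 4 of 6 arrays detected it, against 152.5, 159.2 and 179.2 in CS_wt. In round spermatids the values were 204.3, 228.5 and 261.8 in RS_mut, against 217.2, 235.2 and 266.9 in RS_wt. All arrays of the other 3 groups detected Necab3, its round arrays stood above all its condensing arrays, and its condensing groups overlapped before normalization. Gm10125 probe ILMN_2565835 was detected on all 24 arrays. It reached 226.9, 314.6 and 393.4 units in CS_mut, against 424.8, 459.7 and 551 in CS_wt. In round spermatids it reached 970, 1133 and 1613 in RS_mut, against 903.2, 1117 and 1764 in RS_wt. Gm10125 is therefore the member whose condensing groups were already separate before any normalization.

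**Figure D1:**
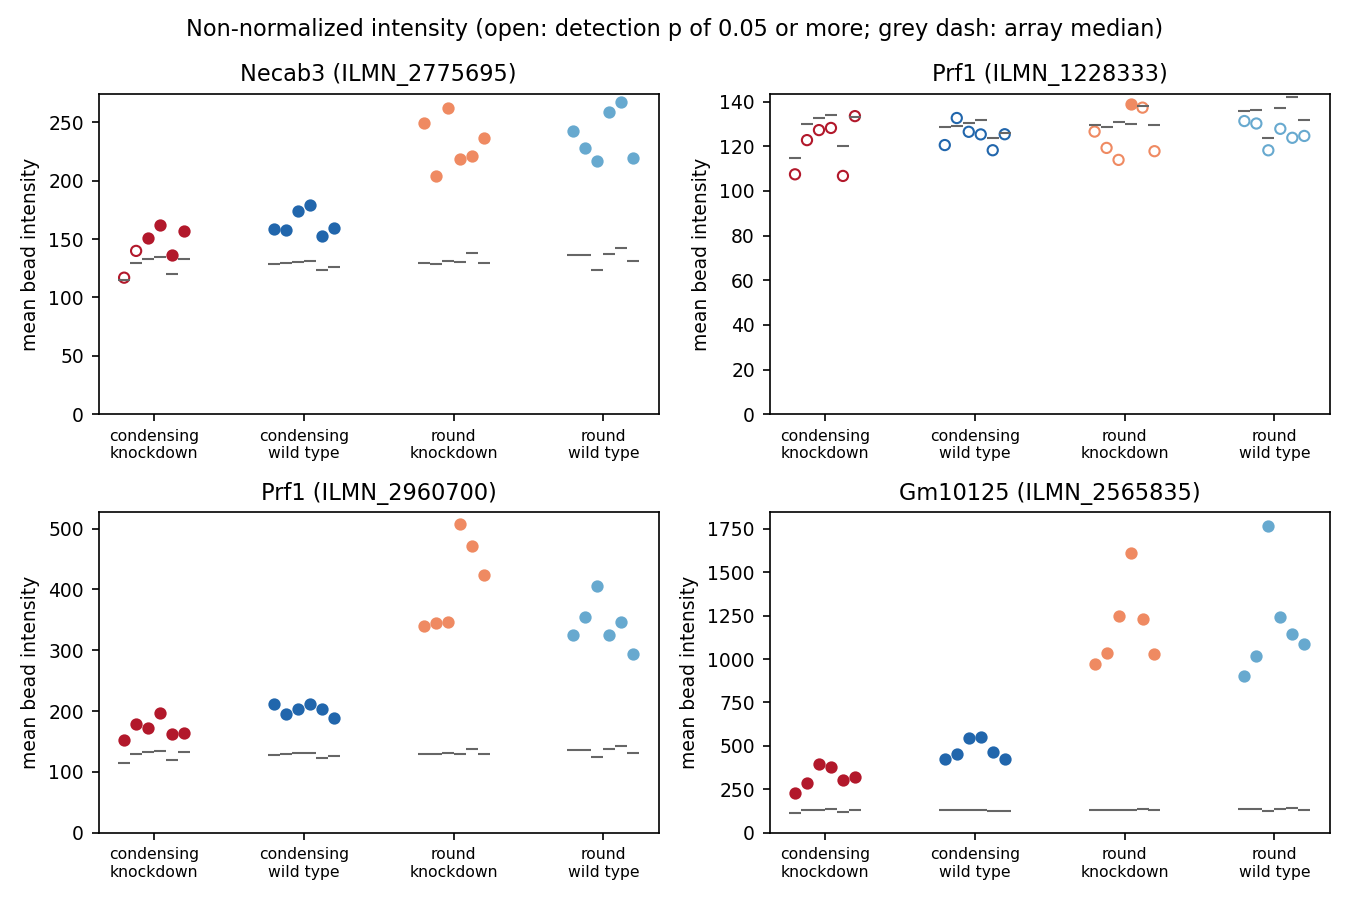
Non-normalized mean bead intensity (units, linear axis from 0) of the 4 member probes on each array, by group, with filled points for detected values, open points for a detection p of 0.05 or more and a grey dash for the array's median. Gm10125 and Prf1 probe ILMN_2960700 stand above the dash on every array, Necab3 comes down towards it in CS_mut, and Prf1 probe ILMN_1228333 lies at it in all groups.

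After background correction, quantile normalization and log2 with an offset of 16, the order of the groups was the same for all 3 genes at the condensing end. Necab3 averaged 5.33 ± 0.31 in CS_mut, 6.06 ± 0.24 in CS_wt, 6.76 ± 0.23 in RS_mut and 6.75 ± 0.09 in RS_wt (log2 intensity, SD, n = 6 each). Prf1 averaged 6.18 ± 0.25 in CS_mut, 6.89 ± 0.18 in CS_wt, 7.97 ± 0.35 in RS_mut and 7.55 ± 0.27 in RS_wt. Gm10125 averaged 7.98 ± 0.30 in CS_mut, 8.90 ± 0.23 in CS_wt, 9.86 ± 0.27 in RS_mut and 9.76 ± 0.46 in RS_wt. On this scale CS_mut was lowest and CS_wt next, with no overlap between them or with the round groups, while RS_mut and RS_wt overlapped for each gene. No overlap in the lower direction occurred for 0.629% of the 19086 probes between CS_mut and CS_wt, for 22.8% between CS_wt and RS_wt and for 21.7% between CS_mut and RS_mut. Between RS_mut and RS_wt it occurred for 0.0891% of probes in the lower and 0.0995% in the higher direction. Since these differences chose the 3 genes, nothing is read from their count of 3 in 3.

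**Figure D2:**
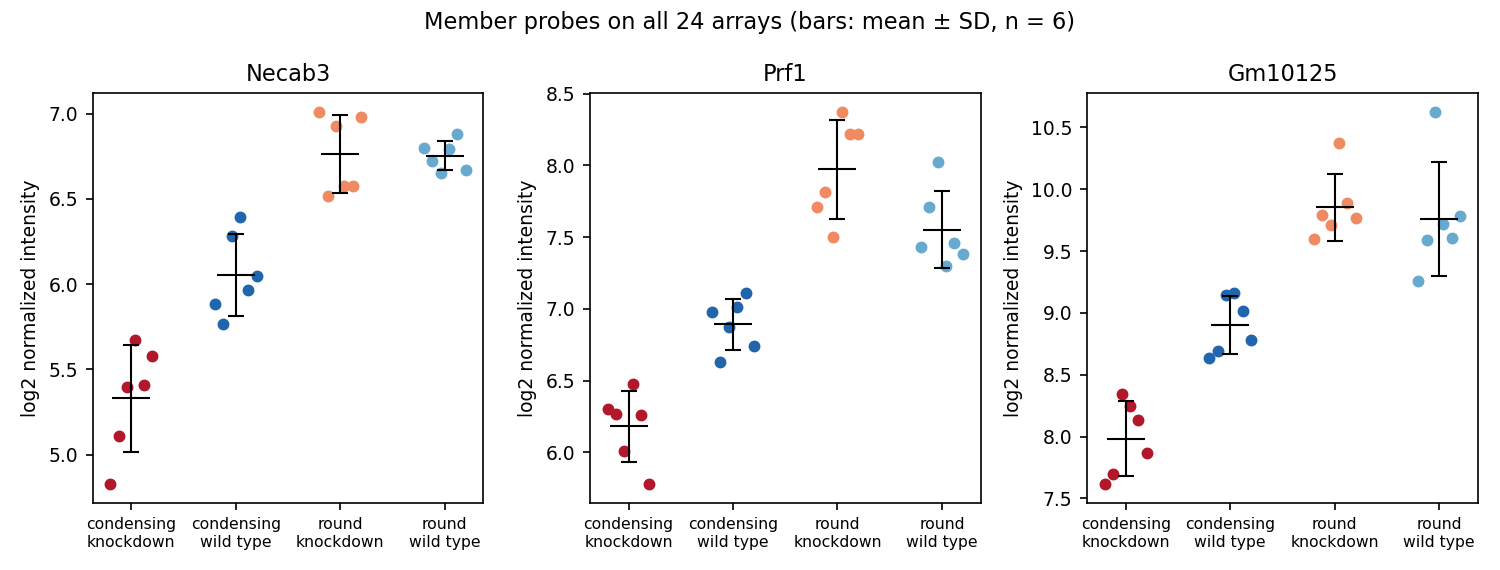
Normalized log2 intensity of Necab3, Prf1 (probe ILMN_2960700) and Gm10125 on each of 24 arrays, by group, with bars for the mean ± SD (n = 6). All CS_mut points lie below all CS_wt points, and both condensing groups lie below the round groups, which overlap.

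In condensing spermatids, Necab3 in CS_mut was at 60.5% of its CS_wt level, Prf1 at 61.1% and Gm10125 at 52.9%. The highest normalized CS_mut value of Necab3 was 5.67, against a lowest CS_wt value of 5.76. For Prf1 the highest CS_mut value was 6.48, against a lowest CS_wt value of 6.63, and for Gm10125 the values were 8.34 in CS_mut and 8.63 in CS_wt. The log2 differences, CS_mut minus CS_wt, were -0.72 ± 0.14 for Necab3 (SE, 95% interval -1.001 to -0.45), -0.71 ± 0.15 for Prf1 (-1.02 to -0.40) and -0.92 ± 0.18 for Gm10125 (-1.28 to -0.56). Among the 19086 probes ordered from the lowest difference, Gm10125 was number 19, Necab3 number 38 and Prf1 number 41. In the fit over all probes 89 were called in this comparison at an adjusted p under 0.05 (0.466%), 35 of them higher (0.183%) and 54 lower (0.283%). The size of the differences rested on the background correction: without it they were -0.22 for Necab3, -0.30 for Prf1 and -0.67 for Gm10125. With an offset of 50 in place of 16 that of Necab3 was -0.43. In RNA from a pool of cells, fewer cells that hold a transcript and less of it per cell cannot be told apart.

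From round to condensing spermatids in the wild type, Necab3 in CS_wt was at 61.7% of its RS_wt level, Prf1 at 63.3% and Gm10125 at 55.1%. The log2 differences, CS_wt minus RS_wt, were -0.70 ± 0.14 for Necab3, -0.66 ± 0.15 for Prf1 and -0.86 ± 0.18 for Gm10125. Such sizes were common between the stages: 18.1% of all probes had a lower difference than Necab3, 19.6% than Prf1 and 12.3% than Gm10125. In the knockdown the stages were further apart. CS_mut minus RS_mut was -1.43 for Necab3, which left it at 37.1% of its RS_mut level, -1.79 for Prf1 at 28.9% and -1.87 for Gm10125 at 27.4%. In that comparison 2.43% of probes had a lower difference than Necab3, 0.665% than Prf1 and 0.513% than Gm10125. The comparisons share the CS_mut or CS_wt arrays with the one above, so the values stand side by side and are not separate evidence.

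The stage differences moved with the scaling of the arrays, and their direction did not. The fit called 6692 probes lower in CS_wt than in RS_wt (35.1%) and 5317 higher (27.9%), so that 44.3% of calls were higher. With arrays scaled to the median of all probes that share was 26%, and with scaling to the median of the tested probes it was 55%. In the knockdown 6487 probes were lower in CS_mut than in RS_mut (34%) and 5339 higher (28%), a share of 45.1% higher, against 29.5% and 52.6% under those scalings. The median difference of all probes, CS_wt minus RS_wt, was -0.06 as reported, -0.34 with scaling to all probes and 0.10 with scaling to the tested probes. Relative to that median, Necab3 was at -0.63 as reported and -0.74 under either median scaling. Those scalings differ only by a constant for each array, so their values relative to the median are the same by construction. Prf1 was at -0.60 as reported and -0.83, and Gm10125 at -0.80 and -1.10.

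**Figure D3:**
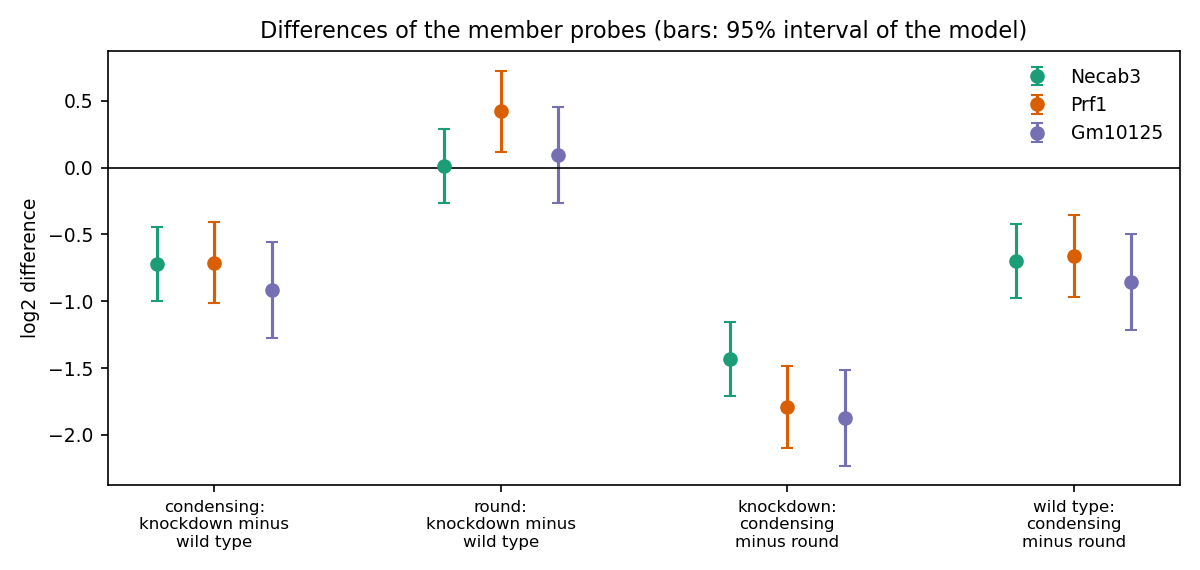
Log2 differences of Necab3, Prf1 and Gm10125 in 4 comparisons of group means, with bars for the 95% interval of the limma model. Knockdown minus wild type lies below 0 in condensing and at or above 0 in round spermatids for all 3 genes, and both stage differences lie below 0, with the knockdown's further down.

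In round spermatids, the comparison the choice of genes did not use, none of the 3 genes was called, 0 of 3 against a background of 0.00524% of probes called in either direction. Necab3 in RS_mut was at 100.7% of its RS_wt level (95% interval 83.1% to 122%), with a log2 difference of 0.01 ± 0.14 and a limma adjusted p of 0.9994 over 19086 probes. Gm10125 was at 106.6% (83.2% to 136.8%), with a difference of 0.09 ± 0.18 and the same adjusted p. Prf1 was at 133.9% (108.3% to 165.5%), a difference of 0.42 ± 0.15 with an unadjusted limma p of 0.0088 and again an adjusted p of 0.9994. An exact two-sided permutation test over all 924 regroupings of the 12 arrays gave p = 0.0476 for Prf1, 0.922 for Necab3 and 0.675 for Gm10125, each 1 after adjustment over all probes. The smallest p the design allows is 0.00216. No probe could by itself be called at that p over 19086 probes, so the adjusted exact values decide nothing. The limma intervals allow a decrease in RS_mut to 83.1% for Necab3 and 83.2% for Gm10125. The Prf1 interval lies above the RS_wt level, but it is not adjusted for the 19086 probes. Prf1 was not called, so no direction is read from its interval.

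The higher Prf1 mean in RS_mut rested on 3 of its 6 arrays. Replicates 10, 11 and 12 had non-normalized intensities of 508, 471 and 423 units, above every RS_wt array, and replicates 7, 8 and 9 had 340, 345 and 346, within the RS_wt range. Leaving out any single array kept the Prf1 difference between 0.34 and 0.52. For Necab3 and Gm10125, whose differences are near 0, the sign turned with single arrays, over ranges of -0.04 to 0.06 and -0.01 to 0.27. The single probe called in round spermatids belonged to Npm3-ps1, a pseudogene named after a nucleophosmin family gene. It was lower in RS_mut, at 8.67 against 9.95 in RS_wt, with a difference of -1.28 ± 0.22 and a limma adjusted p of 0.0453, a call lost under 26 of 37 alternatives, with adjusted p between 0.0140 and 0.483.

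As a description, the knockdown difference in condensing minus that in round spermatids was -0.73 ± 0.19 for Necab3, -1.13 ± 0.21 for Prf1 and -1.01 ± 0.25 for Gm10125 (log2, SE). It was not tested, since the condensing difference chose the genes. The Prf1 value is made of -0.71 in condensing and 0.42 in round spermatids, and the round part was not called, so no direction is read from it. For Necab3 and Gm10125 the round values were 0.01 and 0.09, not called either.

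Probes as low as the members in both differences that chose them were looked up. With the 3 member probes, 4 of 19086 were at least as low as the least extreme member in both the wild-type stage difference and the condensing knockdown difference. The other one, ILMN_2727628, belongs to Mdm1, a microtubule-binding protein of centrioles, with -1.03 for CS_wt minus RS_wt, -0.76 for CS_mut minus CS_wt and -0.03 for RS_mut minus RS_wt. Other tested Mdm1 probes had condensing knockdown differences between -0.57 and 0.05, so probes of 1 gene differed here. The least extreme member was Prf1 for both differences, so its values set both cutoffs. Taken singly, 19.6% of probes were lower than Prf1 in the stage difference and 0.21% in the knockdown difference. As the members set the cutoffs, nothing is read from the count of 4. Of 1557 probes with CS_wt at least 1 log2 unit below RS_wt, 2 (0.128%) were called lower in CS_mut than in CS_wt, with a median knockdown difference of -0.002, beside 0.283% and 0.005 over all probes. Of 1675 probes with CS_mut at least 1 unit below RS_mut, 16 (0.955%) were called lower and the median was -0.075. Both sets share arrays with the knockdown comparison, so their counts describe these arrays only.

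**Figure D4:**
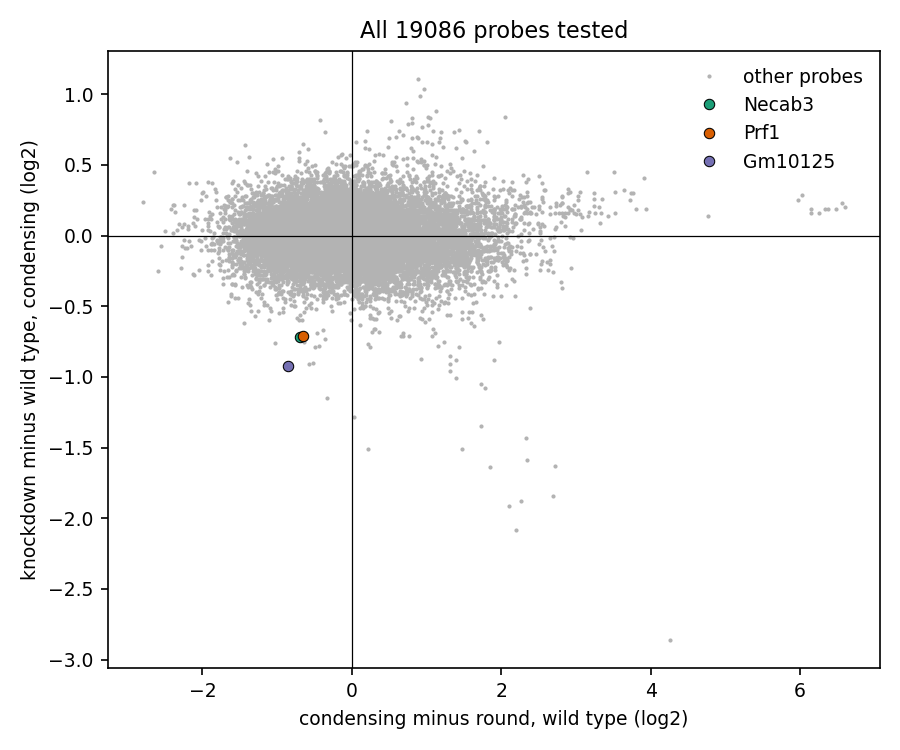
Each tested probe's wild-type stage difference (CS_wt minus RS_wt, log2, horizontal) against its condensing knockdown difference (CS_mut minus CS_wt, log2, vertical), with Necab3, Prf1 and Gm10125 in colour. The 3 genes lie at the lower edge of the lower left part of the plot, and the points with the most negative knockdown differences lie to the right, among probes higher in condensing spermatids.

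The 3 transcripts ran together across the groups more than within them. Over 24 arrays Pearson's r of log2 values was 0.842 between Necab3 and Prf1, 0.896 between Necab3 and Gm10125 and 0.924 between Prf1 and Gm10125, and the points share the 4 groups that chose the genes. With each group's mean taken off, r was -0.19, 0.175 and 0.518. Within the 12 condensing arrays these deviations had r of -0.002 between Necab3 and Prf1, 0.78 between Necab3 and Gm10125 and 0.185 between Prf1 and Gm10125. Within the 12 round arrays r was -0.437 between Necab3 and Prf1, -0.486 between Necab3 and Gm10125 and 0.684 between Prf1 and Gm10125.

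The genes most like each member over 24 arrays were found by Pearson's r. For Necab3 they were Gphn, a scaffold of inhibitory synapses that also makes the molybdenum cofactor (r 0.944), 2700097O09Rik (0.931), Grip1 (0.929), Naa25 (0.924) and Igf2bp3 (0.919). Since likeness to a gene chosen for being low in CS_mut picks genes that are low there too, the condensing knockdown differences of all these genes are given as descriptions, with no test. The log2 difference, CS_mut minus CS_wt, was -0.48 for Gphn, -0.49 for 2700097O09Rik and -0.21 to -0.41 for the other 3. For Prf1 they were Erich5 (0.941), Srr, the serine racemase (0.928), Zfp87 (0.923), Rpl23 (0.923) and Cdh23 (0.919). Erich5 had knockdown differences near those of Prf1 in both stages, with -0.67 in condensing and 0.39 in round spermatids, and it also led the likeness of deviations from group means (r 0.754). For Gm10125 they were Mdm1 (0.953), Srr (0.95), Ftmt, the mitochondrial ferritin (0.949), G2e3 (0.946) and Rhbdl2 (0.94). Their condensing knockdown differences lay between -0.32 and -0.76. Taken on deviations alone, Bdh2 led for Necab3 (r 0.789) and Retreg2 for Gm10125 (r 0.922). Their condensing knockdown differences were 0.18 and 0.01.

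No tested gene that neighbours or overlaps the members in RefSeq's table was called in the condensing knockdown. Of 23 such genes 11 were on the array and 5 were tested, and 0 were called in CS_mut against CS_wt (limma), where limma called 0.251% of genes lower and 0.223% higher at 1 probe per gene. Necab3 overlaps 1700003F12Rik on the other strand, whose 2 probes rose in CS_wt relative to RS_wt by 0.99 and 0.89 (limma adjusted p = 4.53e-05 and 9.16e-05) and had knockdown differences of -0.09 and -0.16 in condensing spermatids. It also overlaps E2f1, a cell cycle transcription factor, which had -0.10 in the knockdown and -0.28 between the wild-type stages, neither called. Zeb1, the zinc finger repressor that Gm10125 overlaps, had 0.05 for CS_mut minus CS_wt. Zeb1 fell by 0.52 ± 0.15 in CS_wt relative to RS_wt (limma adjusted p = 0.00295), the direction Gm10125 had between the stages.

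Beside Prf1, Pald1 rose by 1.22 ± 0.12 between the wild-type stages (limma adjusted p = 9.95e-10) and had a condensing knockdown difference of 0.25 (adjusted p = 0.579). The RS_wt mean of Pald1, 4.63, lay near that of the dim Prf1 probe (4.55). Pald1 may have passed the filter through the condensing arrays alone, so its p-value between the stages is not read as evidence. Tbata, a thymus and testis gene on its other side, had 3 probes with stage differences of 0.35, 0.81 and -0.59, all called, and knockdown differences of -0.03, -0.26 and 0.02. The first of these Tbata stage differences turned to -0.20 with scaling to the median of all probes. Probe positions are not in the files used here, so a probe could not be set against the overlapping exons.

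Most other genes of cytotoxic lymphocytes, the cells known for perforin, were rarely detected. Of 20 listed, 19 were on the array and 3 were tested, where over the whole array 10759 of 19057 genes passed the filter. The other 16 were detected on at most 4 arrays, and 9 of them on none, among them Gzmb, a granzyme released with perforin, Klrd1 and Klrk1, receptors of natural killer cells, and Tbx21 and Eomes, the transcription factors of these cells. Of those tested, the chemokine Ccl5 rose by 2.08 ± 0.17 in CS_wt relative to RS_wt, the death ligand Fasl fell by 1.28 ± 0.12 and the chemokine Xcl1 fell by 0.76 ± 0.13 (limma adjusted p = 3.43e-11, 4.84e-10 and 8.78e-06). Their differences for CS_mut minus CS_wt were -0.18, -0.10 and 0, none called. Fasl was detected on 12 arrays and Xcl1 on 9, and their CS_wt means of 4.85 and 4.58 lay near that of the dim Prf1 probe (4.64). Both may have passed the filter through the round arrays alone, so their p-values between the stages are not read as evidence. The summed linear level of the 3 ranged from 186 to 272 in CS_mut, 194 to 311 in CS_wt, 138 to 204 in RS_mut and 127 to 181 in RS_wt. Ccl5 ran opposite to Prf1 between the wild-type stages, Fasl and Xcl1 ran the same way, and the median of the 3 was -0.76. The part of such cells in the Prf1 values was not tested.

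T cell and leukocyte markers were read beside Prf1 in the same way. Of 13 T cell receptor complex and coreceptor genes on the array 6 were tested, with Cd3d higher in CS_wt than in RS_wt (1.90), Zap70 lower (-1.43) and Cd8b1 lower (-0.69), all called, and 0 called between CS_mut and CS_wt. Over all genes limma called 30.2% higher and 33.6% lower between these stages. With scaling to the median of all probes, 1 of the 6 was called higher and 3 lower. Cd8a and Lat were detected on no array and Cd3e on 1. Of 9 tested leukocyte markers 7 rose in CS_wt relative to RS_wt and 0 fell, against 30.2% and 33.6% of all genes, led by Cd74, the invariant chain of antigen presentation, at 2.86. With scaling to the median of all probes 5 were called higher, since Lyz1 (0.17, limma adjusted p = 0.388) and Csf1r (0.14, adjusted p = 0.370) were not. Their summed linear level ranged from 1690 to 2690 in CS_mut, 2000 to 2990 in CS_wt, 792 to 1070 in RS_mut and 862 to 1160 in RS_wt. Cd14, a lipopolysaccharide coreceptor of monocytes and macrophages, was the 1 list gene called in the condensing knockdown, lower in CS_mut with 6.06 against 6.70 in CS_wt (difference -0.64 ± 0.14, limma adjusted p = 0.0283). That call was lost when any 1 of CS_mut19, CS_mut24, CS_wt15, CS_wt16, CS_wt17 or CS_wt18 was left out. The median of the 9 leukocyte markers for CS_mut minus CS_wt was -0.27, beside 0.009 over all genes, and -0.19 with scaling to the median of all probes. Among them Cd74 (0.16), Fcer1g (0.01) and Csf1r (0.23) were above 0. The part of leukocytes in the Prf1 difference was not tested.

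The machinery that loads and releases perforin in lymphocytes is shared with other secretory cells, and 9 of its 13 listed genes were tested. In CS_wt relative to RS_wt 6 fell and 2 rose, against 33.6% and 30.2% of all genes, with a median of -0.38 beside -0.03 over all genes. Calr, the calcium-binding chaperone calreticulin, which also binds perforin, fell by 1.58 ± 0.14, Lyst, the regulator of lysosome-related organelles, fell by 1.14 ± 0.19, and Lamp1, a lysosomal membrane protein, fell by 0.63 ± 0.12 (limma adjusted p = 1.67e-10, 9.59e-06 and 3.33e-05). The vesicle fusion protein Vamp8 rose by 0.93 ± 0.15 and Ctsc, the protease that activates granzymes, rose by 0.55 ± 0.12 (adjusted p = 3.33e-06 and 0.000199). Vamp8 was detected on at most 10 arrays, and its RS_wt mean of 4.61 lay near that of the dim Prf1 probe (4.55). It may have passed the filter through the condensing arrays alone, so its p-value is not read as evidence. None of the 9 was called in either knockdown comparison, and their median for CS_mut minus CS_wt was 0.09. Among 8 tested genes listed for the pore-forming domain that perforin shares with complement, 2 fell and 2 rose in CS_wt relative to RS_wt. Over all genes 33.6% fell and 30.2% rose, near that split, and the median of the 8 was 0. The split moved with the scaling: to the median of all probes, 4 were called lower and 2 higher. The median of the 8 was then -0.32, beside -0.34 over all probes. Complement C7 fell by 1.24 ± 0.13 and Brinp3 by 0.78 ± 0.15, and C8g, the lipocalin chain of complement C8, which lacks that domain itself, rose by 1.02 ± 0.16 and Mpeg1, the perforin-like protein of macrophages, by 0.68 ± 0.13. Mpeg1 was detected on at most 8 arrays, with an RS_wt mean of 4.61, so the limit given for Vamp8 holds for it too. In the condensing knockdown 0 were called, the lowest being Brinp3 with -0.46 (limma adjusted p = 0.264).

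For Necab3, 5 of 8 listed relatives and partners were tested. Necab1 was detected on no array, Apba2 on 2 and Hif1a on 1. Necab2, its paralogue, fell by 0.56 ± 0.15 in CS_wt relative to RS_wt, Apba3 fell by 1.04 ± 0.10 and Hif1an, the asparagine hydroxylase that restrains HIF-1 and that Apba3 binds in human cells, fell by 0.79 ± 0.12 (limma adjusted p = 0.00155, 7.73e-10 and 1.62e-06). App rose by 0.69 ± 0.12 (adjusted p = 1.29e-05), a call lost with scaling to the median of all probes (0.25, limma adjusted p = 0.0969). In all, 3 of the 5 tested genes fell and 1 rose, against 33.6% and 30.2% of all genes, and the median was -0.56. With that scaling 4 were called lower and 0 higher, and the median was -1.04, beside -0.34 over all probes. Between CS_mut and CS_wt 0 were called, with a median of -0.01 and the extreme value of 0.37 for Hif1an (adjusted p = 0.264).

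Necab3 is known in human cancer cells to take part in HIF-1 activation through Apba3, so HIF-1 target genes were counted as well. Of 12 listed 7 were tested, of which 6 rose in CS_wt relative to RS_wt and 1 fell, against 30.2% and 33.6% of all genes, with a median of 0.89. With scaling to the median of all probes 4 were called higher and 1 lower and the median was 0.46, since P4ha1 (0.17, limma adjusted p = 0.201) and Egln3 (0.24, adjusted p = 0.130) were no longer called. With that scaling and no background correction the median was 0.19. Egln3 was detected on at most 7 arrays, so it may have passed the filter through 1 stage alone. Pdk1, the pyruvate dehydrogenase kinase, rose by 1.30 ± 0.14, Slc2a1, the glucose transporter, by 1.01 ± 0.17 and Pgk1, a glycolytic kinase, by 0.89 ± 0.17 (limma adjusted p = 2.61e-09, 7.66e-06 and 4.53e-05). Ldha, the muscle-type lactate dehydrogenase subunit, fell by 0.80 ± 0.10 (adjusted p = 1.19e-07), a call lost with scaling to the median of the tested probes (-0.20, limma adjusted p = 0.0637). In the condensing knockdown 0 were called, and the median was 0.02. The Sertoli and erythroid sums were higher in CS_wt too, and their part in these rises was not tested. In round spermatids 0 genes of any of the 11 lists were called in RS_mut against RS_wt, where limma called 0% of genes at 1 probe per gene, and 663 of 19086 probes had an unadjusted p under 0.05.

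**Figure D5:**
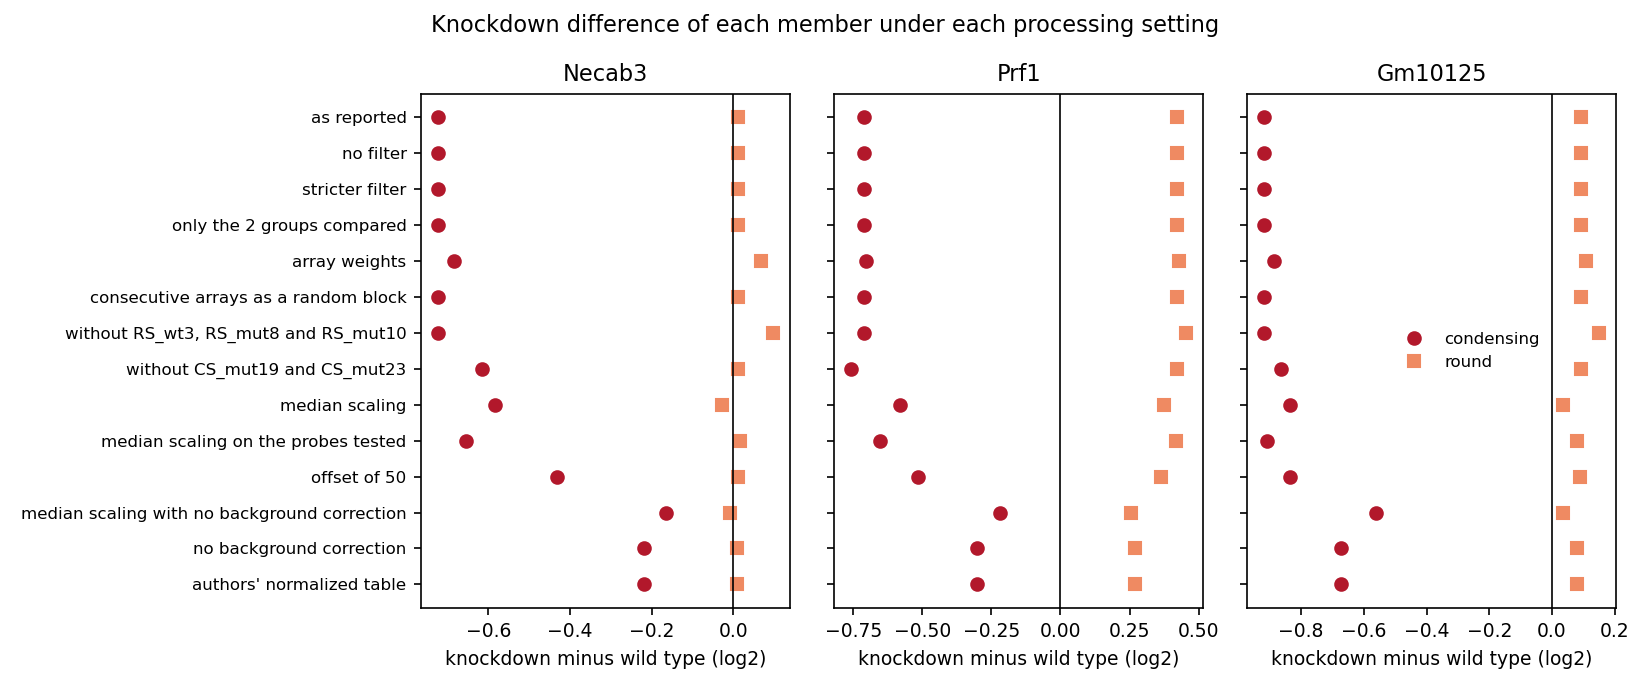
Knockdown minus wild type (log2) of Necab3, Prf1 and Gm10125 in condensing (circles) and round spermatids (squares) under 14 settings of the processing, listed down the page. All condensing values lie below 0 and come closest to it without background correction, and the round values of Necab3 lie between -0.03 and 0.10.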

How the data were processed

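The authors deposited a table of non-normalized mean bead intensity on a linear scale, with a detection p-value for every value, per the file headers. A second deposited table holds intensity values on a linear scale. By its values it keeps the ranks of the first and is quantile normalized (ratio between arrays at equal rank at most 1.009). Scanner software, background handling and genome build: not given in the sources used here. Of 45281 probes, 34885 carried 1 gene symbol, 18 several and 10378 none.

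The non-normalized values of 24 arrays were corrected by normexp with noise inferred from the detection p-values, raised by an offset of 16, quantile normalized and logged to base 2 (limma 3.58.1 under R 4.3.3, steps as in neqc). The filter kept 19086 probes detected (p under 0.05) on at least 6 arrays. Each stage had 12 arrays, so a probe detected on no more than that could pass through 1 stage alone. A limma fit of 4 group means gave differences with model standard errors, and p-values were adjusted by Benjamini-Hochberg over all probes kept, called under 0.05. The fit was tested on simulated data. Lists used the probe with the highest mean of each gene (10759 genes). The number of arrays limits precision: the median 95% interval reached 0.294 log2 to either side. Named genes were taken from all member probes, the 5 most alike by r (3 by deviations), the nearest 3 genes on each side with overlapping ones, and, per list, the called genes with the smallest adjusted p and the gene with the highest mean. Some genes under that rule go without their values above, among them Ankrd37 of the HIF-1 list and Tssk2 of the acrosome list. List genes outside that rule are named for their known role, after their values were seen. The members and the 11 gene lists were chosen with earlier results of these data known. Alternatives changed scaling, background, offset, filter, value table, weights, arrays and test, and 3 of them were chosen after seeing the data: both further median scalings, and leaving out CS_mut19 with CS_mut23. No sequence of Gm10125 is reported.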

Additional observations from a re-analysis of the deposited data

Results flagged for a closer look

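One array stood apart from its group by the gap test on groups of 6 arrays. Gm10125 in RS_mut replicate 10 had a log2 intensity of 10.37, and its gap to the nearest RS_mut array was 0.626 of the group's range. The RS_wt group had an array as high, replicate 3, at 10.62. In all, 12 groups of member values were tested and 1 was marked, and chance alone marks about 1 group in 20. Without RS_mut10 the Gm10125 difference, RS_mut minus RS_wt, was -0.01 in place of 0.09, not called in either case.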

How the results depend on the processing

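No paired analysis was possible because the groups share no replicate numbers. For the 3 genes the condensing knockdown difference and both stage differences stayed below 0 under every alternative run, and the round knockdown difference was never called, with limma adjusted p between 0.350 and 1 for Prf1, 0.963 and 1 for Necab3 and 0.514 and 1 for Gm10125. Sizes depended on scaling and background, and the cause was not tested. With scaling to the median of all probes, RS_mut minus RS_wt of Necab3 was -0.028, CS_wt minus RS_wt was -1.08 for Necab3, -1.17 for Prf1 and -1.44 for Gm10125, and CS_mut minus RS_mut was -2.12 for Prf1 and -2.31 for Gm10125. Without background correction, and equally in the authors' normalized table, Necab3 had -0.22 for CS_mut minus CS_wt, -0.28 for CS_wt minus RS_wt and -0.51 for CS_mut minus RS_mut, Prf1 had -0.30, -0.36 and -0.94, and Gm10125 had -1.48 for CS_mut minus RS_mut. Median scaling with no background correction gave RS_mut minus RS_wt of -0.009 for Necab3, CS_mut minus CS_wt of -0.16 for Necab3, -0.22 for Prf1 and -0.56 for Gm10125, CS_wt minus RS_wt of -0.44 for Necab3 and -1.21 for Gm10125, and CS_mut minus RS_mut of -0.60 for Necab3 and -1.12 for Prf1. An offset of 50 gave Necab3 -0.43 in the condensing knockdown and -0.94 for CS_mut minus RS_mut, and Prf1 -1.42 for CS_mut minus RS_mut.

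Probes called in the condensing knockdown, 89 as reported, numbered 47 with scaling to all probes and 44 with scaling to tested probes, 164 with array weights, 56 with only the 2 groups in the fit, 166 without RS_wt3, RS_mut8 and RS_mut10, 50 without CS_mut19 and CS_mut23, 46 with consecutive arrays as a random block (correlation 0.142) and 58 at 1 probe per gene. Without CS_mut19 and CS_mut23 Necab3 had -0.62, Prf1 -0.76 and Gm10125 -0.87. The 1 list gene called there became 0 under all 3 median scalings, the fit of 2 groups, the block and leaving out CS_mut19 with CS_mut23, and 2 without the 3 round arrays. Leaving out single arrays aside, the 1 probe called in round spermatids became 0 under every alternative other than scaling to all probes and array weights. At 1 probe per gene the stage calls were 6903 in the wild type and 6765 in the knockdown, as fewer features were tested.

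Leaving out 1 array at a time, RS_mut minus RS_wt ranged from -0.04 to 0.059 for Necab3, below 0 without RS_wt3 (-0.01), RS_wt6 (-0.007), RS_mut7 (-0.04), RS_mut9 (-0.023) or RS_mut12 (-0.033), and from -0.01 to 0.265 for Gm10125, below 0 without RS_wt1 (-0.008) or RS_mut10 (-0.01). CS_mut minus CS_wt ranged from -0.79 to -0.62 for Necab3, -0.77 to -0.63 for Prf1 and -0.99 to -0.85 for Gm10125. Calls ranged from 51 to 104 probes in the condensing knockdown, with 59 without CS_wt13, CS_wt17, CS_mut21 or CS_mut22, 58 without CS_wt15 and 51 without CS_wt16, and from 0 to 2 in round spermatids, while list genes called ranged from 0 to 1. Dim signal limits Necab3 in CS_mut, where 2 of 6 arrays did not detect it. Of the other genes named, the Tbata probe ILMN_3131640 turned in CS_wt minus RS_wt to -0.204 with scaling to all probes and -0.197 with median scaling and no background correction, and no other called value of a named gene turned.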
